A study of Schizosaccharomyces pombe with 6 samples.

Results

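The transcriptome of nitrogen-starved fission yeast (*Schizosaccharomyces pombe*) carrying the *igo1* deletion was compared with that of wild type (WT), gene by gene and away from the chromosome ends. The deletion strain is h- *igo1::kanMX6* (*igo1*Δ), named for a resistance marker in place of the Endosulfine gene, with 2 libraries (its genotype label reads "knockdown"). The WT strain is h- 972, also with 2 libraries. All 4 cultures were kept for 4 hours in minimal medium without nitrogen at 25 °C. Both strains are haploids of the minus mating type (M cells). Another pair of libraries came from h- cells with *igo1::natMx6* and with *pab1* under a promoter that thiamine represses (*nmt41-GST-pab1-KanMx6*). It was used for its spread, in a second fit over all 6 libraries, and for a few values named as such. Of 7001 genes in the tables, 5931 had a mean of at least 10 reads over the 4 libraries and were tested. Of these, 5803 are described here: 115 genes at most 100 kb from where chromosome I or II ends and the 13 *Tf2* retrotransposon copies were tested but set aside, except for 7 that belong to gene groups named below. Those 7 are counted in the groups of phosphate (2), nitrogen uptake and assimilation (2), glycolysis and fermentation (1), hexose uptake (1) and iron (1). A further 1070 genes had fewer reads and were not tested.

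The reads of the deleted gene did not mark the deletion. *igo1* had 1709 and 1572 normalised reads in libraries labelled *igo1*Δ, against 1898 and 1941 in WT (log2 fold change -0.23 ± 0.07, adjusted p = 0.0264). The *pab1*-repressed pair, labelled *igo1::natMx6*, also kept *igo1* reads, with 1854 and 4872 when all 6 libraries were normalised together. Which part of the gene was counted and which was deleted is not given in the sources used here. The libraries are therefore called by their labels, and every direction given below rests on those labels. Reads on genes numbered 17675067 and 18517786 in libraries labelled *igo1*Δ, against 14791399 and 16077159 in WT. The pairs of libraries were deposited in separate tables, the descriptions of the *igo1*Δ pair carry an added "bis", and whether both pairs were processed together is not given in the sources used here, so strain and preparation cannot be told apart. The median absolute log2 difference between the 2 libraries of a pair was 0.141 in libraries labelled *igo1*Δ and 0.0776 in WT. *nmt1* and *thi2*, thiamine biosynthesis genes that thiamine represses, were high in all 4 libraries: *nmt1* had 147964 and 215770.0 normalised reads in libraries labelled *igo1*Δ, against 167853 and 182819 in WT. In the *pab1*-repressed pair *nmt1* had 53.0 and 47.4 when all 6 libraries were normalised together, so that pair also differs from the 4 libraries in this RNA.

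Values are reads scaled to a common library size (TMM-normalised reads, below "normalised reads"), and fold changes are on the log2 scale for *igo1*Δ over WT. Adjusted p-values are from edgeR's quasi-likelihood test with Benjamini-Hochberg adjustment over all tested genes. The value after ± is the size of the log2 fold change divided by the square root of that test's F statistic. It is not a fitted standard error and may understate the error of genes with few reads. Genes with an adjusted p under 0.05 were called. Over all tested genes 29.6% were called higher and 30.1% lower in libraries labelled *igo1*Δ, and 11.3% were called at least 2-fold higher and 6.02% at least 2-fold lower. The split of calls depended on the scaling: 1754 higher against 1785 lower became 1467 against 2278 with upper-quartile scaling, which moved the median of all genes from -0.03 to -0.14. A fit over all 6 libraries, where the *pab1*-repressed pair shares the estimate of the spread, called 513 genes higher and 374 lower, which holds 29.2% and 21% of the genes called above, and its counts stand beside each group below.

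When nitrogen runs out, fission yeast cells divide without growing, arrest in G1 and either mate or enter quiescence. TORC1 activity falls, which lowers the transcription of ribosomal protein genes and opens the way for Ste11, the transcription factor of the mating programme. Greatwall kinase (Ppk18 and Cek1) phosphorylates Endosulfine (Igo1), which then inhibits the phosphatase PP2A with its B55 subunit Pab1. Among the genes described, 18 coding genes were called at least 10-fold higher and 18 at least 10-fold lower in libraries labelled *igo1*Δ. The plot of gene groups shows where these groups of genes lay.

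**Figure D1:**
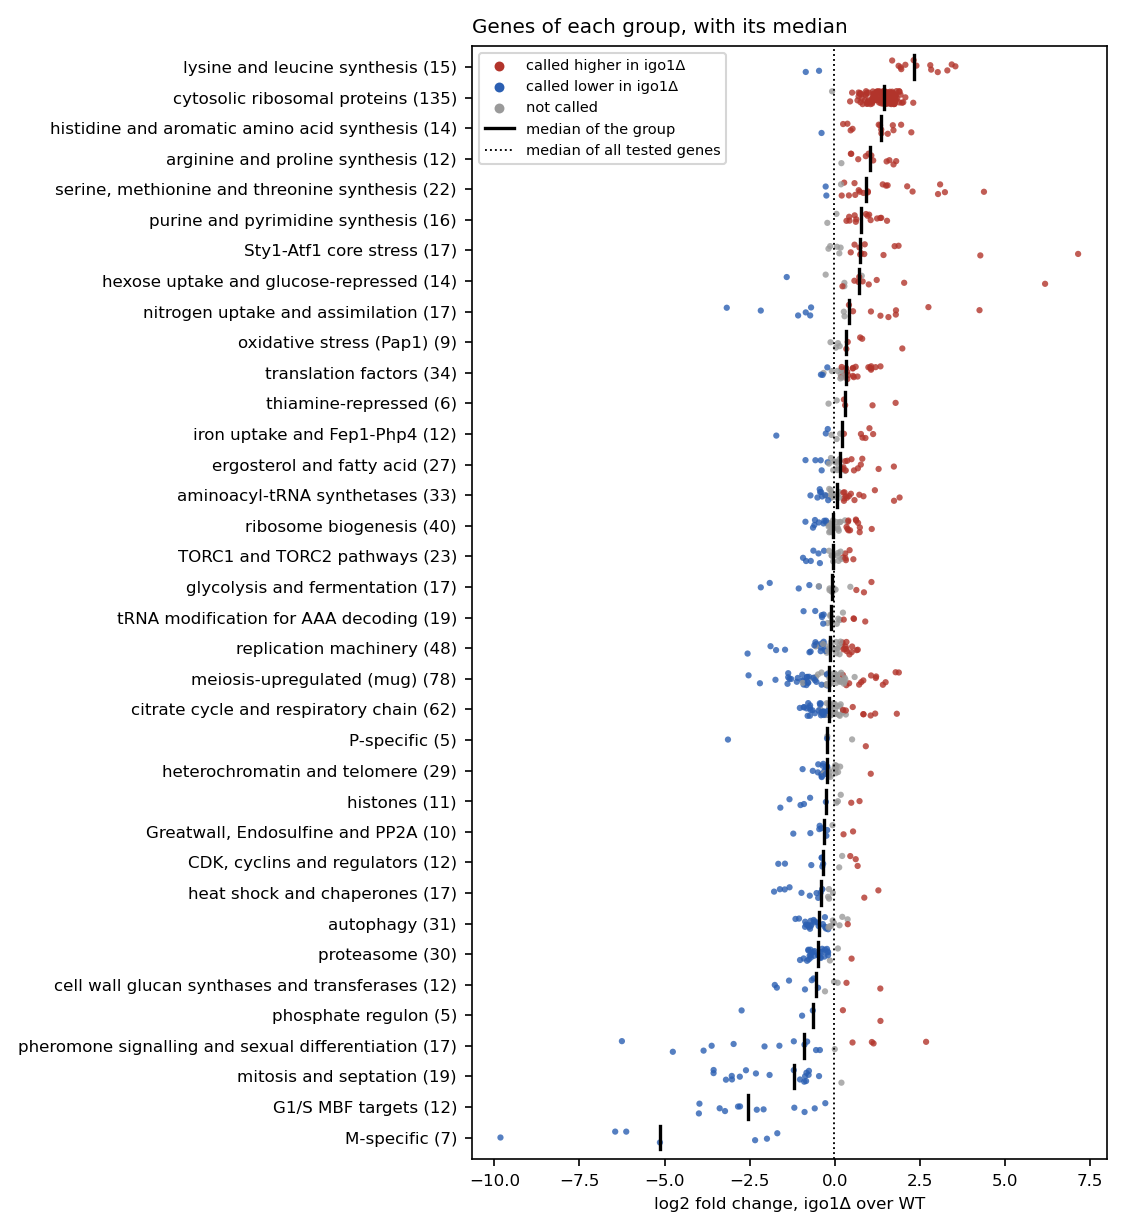
Log2 fold change (igo1Δ over WT) of every tested gene in each of 36 gene groups, ordered by the median. Points are genes, coloured by whether they were called higher, called lower or not called; black bars are group medians, the dotted line is the median of all tested genes (-0.03), and the number tested is in parentheses. Lysine and leucine synthesis (2.31) stood highest and the M-specific genes (-5.14) lowest.

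The mating genes of M cells were low. 7 of 7 genes that are expressed in M cells were called lower, all at least 2-fold, beside 30.1% and 6.02% of all tested genes, and their median log2 fold change was -5.14 beside -0.03 over all tested genes. The fit over all 6 libraries also called 7 of 7 lower. Both strains are M cells by their labels, and in bulk RNA fewer cells that express these genes and less RNA per cell cannot be told apart. The 7 genes summed to 4653 and 4497 normalised reads in *igo1*Δ-labelled libraries, against 35363 and 32923 in WT, and none was at 0 in all libraries. The 3 genes of the secreted pheromone M-factor were among the genes that fell most. *mfm1* had 8.08 and 8.51 normalised reads in libraries labelled *igo1*Δ, against 8432 and 6775 in WT (log2 fold change -9.82 ± 0.20, adjusted p = 1.67e-08), a level 917-fold lower. *mfm3* had 21.2 and 12.8 in *igo1*Δ-labelled libraries, against 1296 and 1109 in WT (log2 fold change -6.13 ± 0.19, adjusted p = 7.21e-08), and *mfm2* had 75.7 and 64.9 in *igo1*Δ-labelled libraries, against 2429 and 2535 in WT (log2 fold change -5.14 ± 0.10, adjusted p = 1.67e-08). In each of the 3 the groups lay more than 10-fold apart. *mam2*, the receptor for the pheromone of the opposite mating type, had 45.4 and 37.2 in *igo1*Δ-labelled libraries, against 3833 and 3437 in WT (log2 fold change -6.45 ± 0.12, adjusted p = 1.67e-08). The remaining members changed less: *mam1*, the M-factor exporter, had 1658 and 1414 in *igo1*Δ-labelled libraries, against 7755 and 7832 in WT, and *sxa2*, a carboxypeptidase, had 193 and 184 in *igo1*Δ-labelled libraries, against 613 and 605 in WT (log2 fold changes -2.34 and -1.69).

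The genes that relay the pheromone signal and start meiosis went both ways. 12 of 17 were called lower and 4 higher, beside 30.1% and 29.6% of all tested genes, with a median of -0.89. *ste11*, the master transcription factor, had 1306 and 1473 normalised reads in libraries labelled *igo1*Δ, against 5233 and 6406 in WT (log2 fold change -2.07 ± 0.11, adjusted p = 1.56e-06). Other genes of the programme lay further apart. *ste6*, the Ras exchange factor, had 13.1 and 13.8 in *igo1*Δ-labelled libraries, against 1026 and 1049 in WT (log2 fold change -6.25 ± 0.15, adjusted p = 3.4e-08). *mei2*, the RNA-binding protein that commits cells to meiosis, had 1209.5 and 933 in *igo1*Δ-labelled libraries, against 28860.0 and 29168 in WT (log2 fold change -4.76 ± 0.15, adjusted p = 8.23e-08). *rgs1*, a regulator of the pheromone G protein, and *spk1*, the pheromone MAP kinase, had log2 fold changes of -3.86 and -3.62. The fit of 6 libraries called 2 higher and 10 lower. The MAP kinase kinase gene *byr1* was not called (1417 and 1435 in *igo1*Δ-labelled libraries, against 1377 and 1483 in WT). Higher genes included 2 that hold the programme back: *pat1*, the kinase that inactivates Mei2, had 7841 and 8911 in *igo1*Δ-labelled libraries, against 3723 and 3905 in WT (log2 fold change 1.13 ± 0.09, adjusted p = 1.29e-05), and *nrd1*, an RNA-binding repressor of mating genes, had 4818 and 5509.9 in *igo1*Δ-labelled libraries, against 2418 and 2448 in WT (log2 fold change 1.09 ± 0.08, adjusted p = 1.13e-05). *mei3*, the Pat1 inhibitor made in diploid cells, was called higher from few reads, with 12 and 25 reads in *igo1*Δ-labelled libraries, against 3 and 3 in WT (adjusted p = 0.00735).

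Markers of other cells were measured beside these. Of 5 genes of P cells, the opposite mating type, 1 was called higher and 2 lower. *map2*, the P-factor gene, had 45.4 and 51.1 in *igo1*Δ-labelled libraries, against 40.5 and 27.7 in WT, and *map3*, the receptor for M-factor, had 186 and 228 in *igo1*Δ-labelled libraries, against 227 and 255 in WT, and neither was called. *map1*, a transcription factor gene of the P programme, had 33.3 and 22.3 in *igo1*Δ-labelled libraries, against 242 and 253 in WT (log2 fold change -3.14 ± 0.21, adjusted p = 5.85e-06). The P-cell list summed to 15058 and 16735 normalised reads in libraries labelled *igo1*Δ, against 9819 and 9707 in WT, nearly all of it from *sxa1*, an aspartic protease (13418 and 14944 in *igo1*Δ-labelled libraries, against 7564 and 7556 in WT). The number called lower was 1 by DESeq2, without either WT library and without *igo1*Δ replicate 1. Over all 6 libraries, *map1* was called lower and none of the 5 higher, *sxa1* having an adjusted p of 0.0938 there. The 6 markers of meiotic or sporulating cells summed to 955 and 834 in *igo1*Δ-labelled libraries, against 1165 and 1190.5 in WT. Of these markers 4 had enough reads to be tested, and 1 was called higher and 2 lower. Of 78 meiosis-upregulated (*mug*) genes, 13 were called higher and 27 lower, beside 29.6% and 30.1% of all tested genes. *mug15* was at the top (log2 fold change 1.88 ± 0.38, adjusted p = 0.0028) and *mug130* at the bottom (log2 fold change -2.54 ± 0.47, adjusted p = 0.00178). With the *pab1*-repressed pair in the fit, 3 *mug* genes were called higher and 8 lower.

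Ste11 binds a short element, the TR box. Its letters TTCTTTGTT were found on either strand in 8 of 17 windows of the pheromone signalling genes, from 250 bases before to 50 bases after the annotated transcript start, and in 2% of the windows of all 5110 coding genes. Among the M-specific genes, 2 of 7 windows held it, those of *mfm1* and *mfm3*, and the windows of *mam2* and *mfm2* did not. The 3 stretches below are shown because they precede 3 of the genes that fell most. They are from RefSeq (ASM294v3), read in the direction of transcription, with the TR box or its reverse complement in capitals. *mfm1* is on chromosome I, plus strand, 84 to 66 bases before the start, *ste6* on chromosome III, plus strand, 185 to 167 bases before the start, and *mei2*, with 2 matches, on chromosome I, minus strand, 165 to 125 bases before the start.
mfm1: cgaccAACAAAGAAgtctc
ste6: tagtaAACAAAGAAattcc
mei2: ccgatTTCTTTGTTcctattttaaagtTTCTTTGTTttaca
A match describes the letters of a window only. Among all tested coding genes, those set aside included, the box was in 13 of 247 windows of genes called at least 2-fold lower. These include genes already counted in the groups above, such as *mfm1*, *ste6* and *mei2*. Of the windows of genes called at least 2-fold higher, again with those set aside, 4 of 467 held it.

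**Figure D2:**
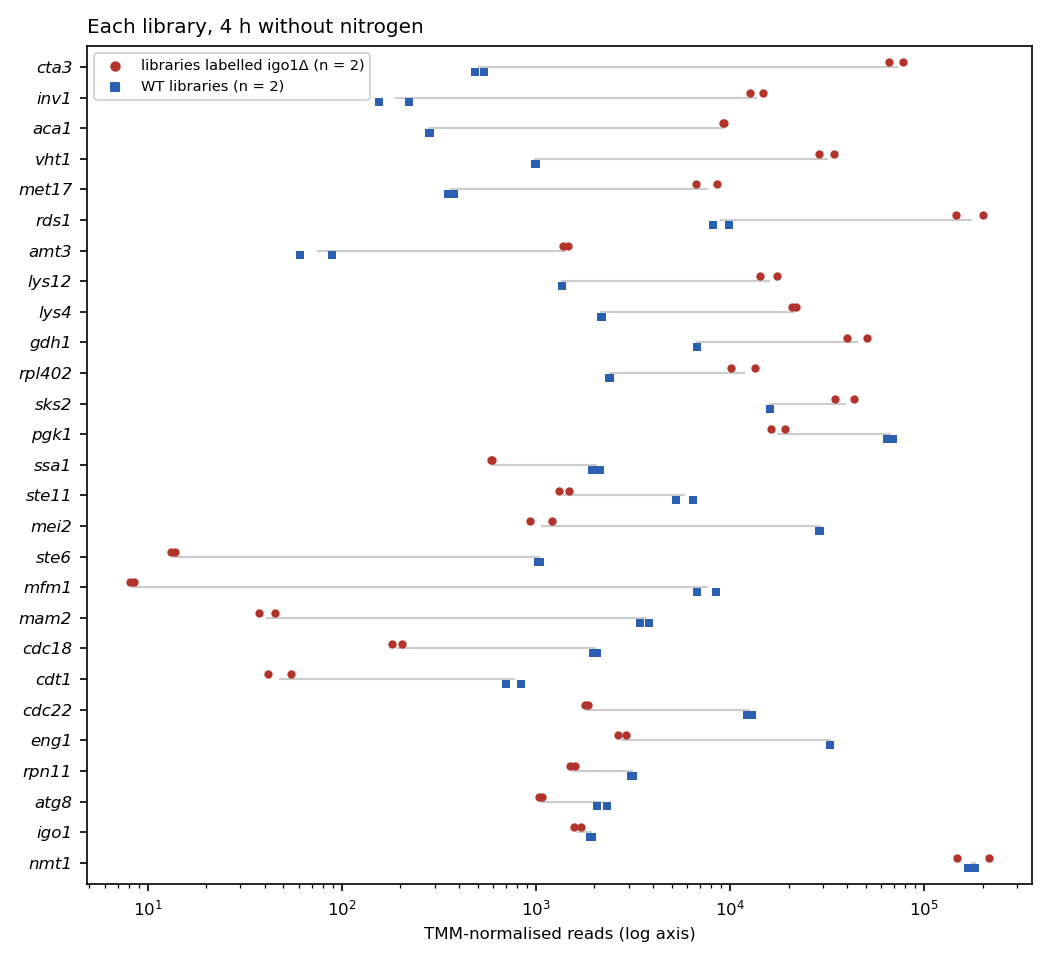
TMM-normalised reads (log axis) of 27 genes in each library, with the 2 libraries labelled igo1Δ as circles and the 2 WT libraries as squares; grey lines join the group means. The groups lie furthest apart in mfm1 (means of 8.29 and 7603) and overlap in nmt1.

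Genes of the G1/S transition were low. The factor MBF turns these genes on as cells start a new cycle, and 12 of 12 of its targets were called lower, 9 of them at least 2-fold, beside 30.1% and 6.02% of all tested genes, with a median of -2.54. *cdt1* and *cdc18*, which load the replicative helicase at origins, had 54.5 and 41.5 normalised reads in libraries labelled *igo1*Δ, against 702 and 834 in WT (log2 fold change -3.99 ± 0.17, adjusted p = 3.75e-07), and 181 and 204 in *igo1*Δ-labelled libraries, against 2059.8 and 1957 in WT (log2 fold change -3.38 ± 0.09, adjusted p = 4.26e-08) in the same order. *cdt2*, the adaptor through which Cdt1 is degraded, had 101 and 104 in *igo1*Δ-labelled libraries, against 1616 and 1619.7 in WT (log2 fold change -3.98 ± 0.09, adjusted p = 3.4e-08). *cdc22*, the large subunit of ribonucleotide reductase, had 1791 and 1855 in *igo1*Δ-labelled libraries, against 12898 and 12251 in WT (log2 fold change -2.79 ± 0.08, adjusted p = 6.89e-08). *cig2*, the S-phase cyclin, and *mik1*, a kinase that restrains Cdc2, had log2 fold changes of -2.84 and -2.09. The smallest change was in *nrm1*, the MBF corepressor (972 and 995 in *igo1*Δ-labelled libraries, against 1240.3 and 1152 in WT, log2 fold change -0.28 ± 0.07, adjusted p = 0.0106). The call of *nrm1* was lost by DESeq2, without WT replicate 1 and in the fit over all 6 libraries, where the other 11 were called lower.

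Among the replication proteins that work downstream, 17 of 48 genes were called lower and 13 higher, shares near the 30.1% and 29.6% of all tested genes, with a median of -0.15. *cdm1*, a small subunit of DNA polymerase delta, had 197 and 193 in *igo1*Δ-labelled libraries, against 1229 and 1077 in WT (log2 fold change -2.56 ± 0.11, adjusted p = 3.75e-07), and *mrc1*, the claspin of the replication checkpoint, and *pol1*, the catalytic subunit of polymerase alpha, had log2 fold changes of -1.89 and -1.73. The helicase gene *mcm2* was called higher (1907 and 2312 in *igo1*Δ-labelled libraries, against 1420.4 and 1550.3 in WT, log2 fold change 0.51 ± 0.10, adjusted p = 0.00265), as was *rfc3*, a clamp loader subunit (log2 fold change 0.67 ± 0.09, adjusted p = 0.000314). The sliding clamp gene *pcn1* was not called (1878 and 1856 in *igo1*Δ-labelled libraries, against 1745 and 1769.5 in WT). Without WT replicate 2 the number called higher was 6, without WT replicate 1 it was 8, and with upper-quartile scaling it was 5. Over all 6 libraries, 0 were called higher and 6 lower.

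The MBF element, the letters ACGCGT, which read the same on both strands, stood in 6 of 12 windows of the G1/S list and in 3.25% of all coding windows. The stretches of *cdt1* (chromosome II, plus strand, 82 to 67 bases before the start), *cdt2* (chromosome I, minus strand, 68 to 40 bases before the start) and *tos4* (chromosome I, plus strand, 84 to 69 bases before the start) are shown because these genes fell most among those with the element, which is in capitals (RefSeq, ASM294v3, read in the direction of transcription). *tos4* encodes a forkhead-domain protein (log2 fold change -3.23 ± 0.09, adjusted p = 4.26e-08). Windows of *cdc18* and *cdc22* did not hold these letters.
cdt1: acgcgACGCGTcaaca
cdt2: cacggACGCGTcgcgttcACGCGTcacga
tos4: ataaaACGCGTcgcga
In *cdt2*, 2 of 3 matches before the start are shown.

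Genes of cell separation were low as well. 18 of 19 genes of mitosis and septation were called lower, 11 at least 2-fold, with a median of -1.21. Over all tested genes these shares were 30.1% and 6.02%. *eng1*, the glucanase that dissolves the primary septum, had 2904 and 2629.9 normalised reads in libraries labelled *igo1*Δ, against 32612 and 32775 in WT (log2 fold change -3.56 ± 0.11, adjusted p = 9.01e-08), and *agn1*, the glucanase of the outer cell wall rim, had 819 and 902 in *igo1*Δ-labelled libraries, against 6787 and 7189 in WT (log2 fold change -3.02 ± 0.08, adjusted p = 4.35e-08). *adg1*, *adg2* and *adg3*, other genes of this group, had log2 fold changes of -2.79, -3.56 and -2.61. Mitotic regulators changed less: *slp1*, the activator of the anaphase-promoting complex, had 1459 and 1569 in *igo1*Δ-labelled libraries, against 5758 and 5686 in WT and *plo1*, the Polo kinase, had 1496 and 1404 in *igo1*Δ-labelled libraries, against 2577 and 2637 in WT (log2 fold changes -1.92 and -0.85). *cut1*, the separase gene, was the member not called (2812 and 2483 in *igo1*Δ-labelled libraries, against 2316 and 2319.9 in WT). Over all 6 libraries, 6 of the 19 were called lower: *eng1* had 1084 and 18722 normalised reads in the *pab1*-repressed libraries.

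Cell wall enzymes and histones also included low genes. Of 12 glucan synthases, transferases and related wall enzymes, 7 were called lower and 2 higher, beside 30.1% and 29.6% of all tested genes. *exg1*, a glucosidase, had 7984 and 8058 in *igo1*Δ-labelled libraries, against 26744 and 27772 in WT (log2 fold change -1.76 ± 0.10, adjusted p = 2.09e-06), *bgs1*, the synthase of the primary septum, had 10704 and 10625 in *igo1*Δ-labelled libraries, against 14806 and 15274 in WT (log2 fold change -0.50 ± 0.09, adjusted p = 0.00161), and *gas2*, a glucanosyltransferase, was called higher (log2 fold change 1.33 ± 0.09, adjusted p = 5.96e-06). Among 11 histone genes 6 were called lower and 2 higher. *hht1* and *hhf1*, the divergent H3 and H4 genes of the first pair, had log2 fold changes of -1.33 and -1.60, and *hht3* had 18989.5 and 21679 in *igo1*Δ-labelled libraries, against 12361 and 12274 in WT (log2 fold change 0.72 ± 0.11, adjusted p = 0.000503). None of these 3 holds a 50-base stretch that recurs in the genome. *ams2*, a GATA-type factor that activates histone genes in S phase, had 350.3 and 315 in *igo1*Δ-labelled libraries, against 3259 and 3336 in WT (log2 fold change -3.31 ± 0.08, adjusted p = 4.17e-08); it was chosen after its value was seen. Without *igo1*Δ replicate 1, 4 histone genes were called higher. The fit of 6 libraries called 2 wall enzyme genes and 1 histone gene lower, and 0 of either group higher.

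Regulators of the cyclin-dependent kinase went both ways. Of 12, 7 were called lower and 3 higher, beside 30.1% and 29.6% of all tested genes. *rum1*, the kinase inhibitor that holds cells in G1, had 882 and 868 normalised reads in libraries labelled *igo1*Δ, against 2474 and 2365 in WT (log2 fold change -1.47 ± 0.07, adjusted p = 8.23e-07), and *srw1*, the factor that directs mitotic cyclins to degradation in G1, had 531 and 575 in *igo1*Δ-labelled libraries, against 1774 and 1724 in WT (log2 fold change -1.66 ± 0.08, adjusted p = 6.51e-07). The mitotic cyclin gene *cdc13* was called lower (log2 fold change -0.69 ± 0.08, adjusted p = 0.000151). *cdc2*, the kinase itself, and *cdr2*, a kinase that senses cell size, were called higher (log2 fold change 0.45 ± 0.08, adjusted p = 0.00154, and log2 fold change 0.67 ± 0.08, adjusted p = 0.000109). The fit of 6 libraries called 0 higher and 2 lower.

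Ribosomal protein genes were higher almost throughout. 134 of 135 were called higher, 112 of them at least 2-fold, beside 29.6% and 11.3% of all tested genes, and the median log2 fold change was 1.43. Changes ran from -0.08 in *rpl3402*, the member that was not called (406 and 464 in *igo1*Δ-labelled libraries, against 479 and 443 in WT), to 2.30 in *rpl402* (10137 and 13453 in *igo1*Δ-labelled libraries, against 2381 and 2406 in WT, log2 fold change 2.30 ± 0.13, adjusted p = 2.22e-06). Between these, *rps20* had 3663 and 4481 in *igo1*Δ-labelled libraries, against 1061 and 1018 in WT (log2 fold change 1.97 ± 0.10, adjusted p = 1.33e-06), and *rpl1001* had 16034 and 20109 in *igo1*Δ-labelled libraries, against 6278 and 6061 in WT (log2 fold change 1.55 ± 0.12, adjusted p = 1.35e-05). The groups did not overlap in 134 of the 135, all with *igo1*Δ above. Of all tested genes, 39.4% had *igo1*Δ above and 43.3% had it below without overlap. Many of these genes exist as near-identical pairs, and their reads may be shared between copies. The 103 members without any 50-base stretch that recurs in the genome had a median of 1.41 and 102 of them were called higher, and the 32 with such a stretch had a median of 1.48.

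The calls of ribosomal protein genes depend on the estimate of the spread. Over all 6 libraries the median was 1.44 and 8 of 135 were called higher, and the *pab1*-repressed libraries lay far apart, *rpl1001* having 9206 and 1429 normalised reads in them. With upper-quartile scaling 134 were called higher with a median of 1.31. The range of the median when each library was left out was 1.25 to 1.59.

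HomolD is the element with the letters CAGTCACA that stands near the start of ribosomal protein genes in this yeast. It was found in 87 of 135 of their windows and in 2.68% of all coding windows. Of the windows of coding genes called at least 2-fold higher, which include the ribosomal protein genes, 93 of 467 held it. Of those called at least 2-fold lower, 3 of 247 held HomolD. The genes set aside are included in both of these counts. The stretches of *rps1402* (chromosome II, plus strand, 90 to 47 bases before the start) and *rpl1602* (chromosome I, plus strand, 54 to 37 bases before the start) show it in capitals, on both strands in *rps1402* (RefSeq, ASM294v3).
rps1402: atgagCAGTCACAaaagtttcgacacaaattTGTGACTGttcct
rpl1602: aaaagCAGTCACAtcttt
These genes had log2 fold changes of 2.07 and 1.93, among the highest of the group.

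**Figure D3:**
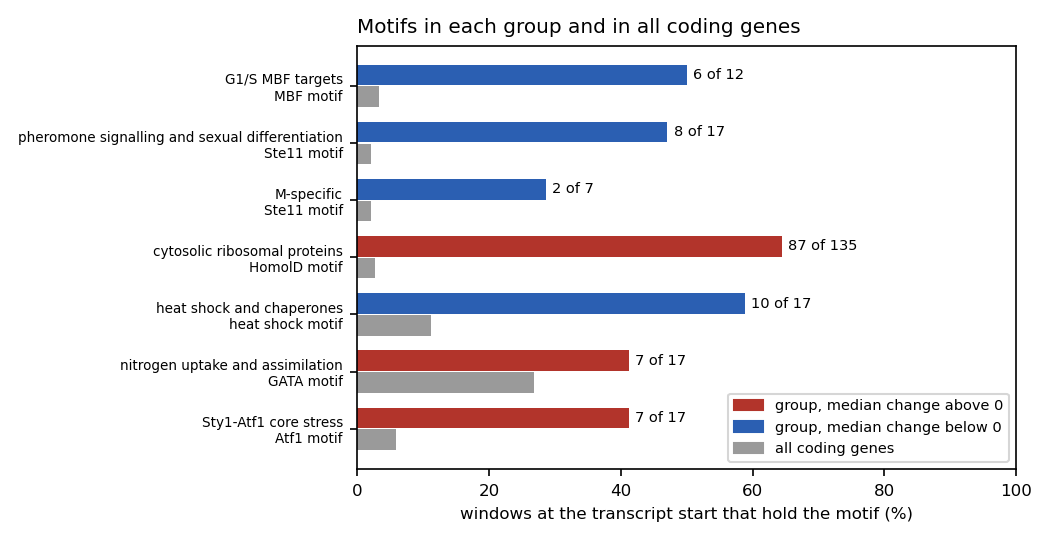
Percent of windows (250 bases before to 50 after the annotated transcript start) that hold a motif on either strand, for 7 pairs of gene group and motif, with the same over all 5110 coding genes in grey. Red bars are groups with a median fold change above 0 and blue bars groups with one below 0; HomolD in ribosomal protein genes reached 64.4% beside 2.68% in all coding windows.

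The rest of the translation machinery changed less. Of 34 translation factor genes 23 were called higher and 3 lower, with a median of 0.31. *tef101*, a gene of EF-1 alpha, was highest, with 34695 and 46887 normalised reads in libraries labelled *igo1*Δ, against 16491 and 15782 in WT (log2 fold change 1.34 ± 0.16, adjusted p = 0.000136). Both genes of elongation factor 2 were called higher by less than 2-fold: *eft202* had 11360.0 and 14947 in *igo1*Δ-labelled libraries, against 6508 and 6804 in WT (log2 fold change 0.98 ± 0.13, adjusted p = 0.000277), and *eft201* had 16447 and 21415 in *igo1*Δ-labelled libraries, against 12731 and 13498 in WT (log2 fold change 0.53 ± 0.13, adjusted p = 0.00914). Of the 50-base stretches of *tef101*, *eft202* and *eft201*, 65.6%, 84.4% and 84.9% recur in the genome, so copies cannot be told apart well. *tif452*, a cap-binding factor, was called lower (log2 fold change -0.41 ± 0.07, adjusted p = 0.0017). Without WT replicate 1, 15 factors were called higher, and without *igo1*Δ replicate 2, 2 were at least 2-fold higher instead of 6. Of 40 ribosome assembly genes, 12 were called higher and 8 lower, beside 29.6% and 30.1% of all tested genes. *fib1*, fibrillarin, had 3226 and 3959 in *igo1*Δ-labelled libraries, against 1685 and 1708 in WT (log2 fold change 1.08 ± 0.10, adjusted p = 3.26e-05), and *nop10*, a partner in small nucleolar particles, was called lower (log2 fold change -0.87 ± 0.13, adjusted p = 0.000621). The number called lower was 5 without WT replicate 2 and 15 with upper-quartile scaling. With the *pab1*-repressed pair in the fit, 1 translation factor and 1 assembly gene were called higher, and 0 factors and 2 assembly genes lower.

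Aminoacyl-tRNA synthetases, which charge tRNAs with amino acids, were mixed. 14 of 33 were called higher and 8 lower, beside 29.6% and 30.1% of all tested genes. *drs1*, for aspartate, had 10736 and 11103 in *igo1*Δ-labelled libraries, against 2987 and 2867 in WT (log2 fold change 1.90 ± 0.08, adjusted p = 3.86e-07), *lrs1*, for leucine, had a log2 fold change of 1.74, and *krs1*, for lysine, had 7049 and 7754 in *igo1*Δ-labelled libraries, against 4535 and 4468 in WT (log2 fold change 0.72 ± 0.08, adjusted p = 0.000108). *mse1*, annotated as a glutamyl-tRNA ligase, was called lower (241 and 243 in *igo1*Δ-labelled libraries, against 405 and 391 in WT, log2 fold change -0.72 ± 0.11, adjusted p = 0.000715). Without WT replicate 1 and with upper-quartile scaling, 9 were called higher. With the *pab1*-repressed pair in the fit, 4 were called higher and 0 lower.

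Genes of amino acid synthesis were also higher. In the pathways to lysine, leucine, isoleucine and valine, 13 of 15 genes were called higher, all 13 at least 2-fold. Over all tested genes these shares were 29.6% and 11.3%. The median of 2.31 was the highest of any group. *lys4*, homocitrate synthase, the first enzyme of lysine synthesis, had 20932 and 21901 normalised reads in libraries labelled *igo1*Δ, against 2167 and 2177 in WT (log2 fold change 3.30 ± 0.10, adjusted p = 5.85e-08), and *lys12*, homoisocitrate dehydrogenase, had 14315 and 17387 in *igo1*Δ-labelled libraries, against 1359.7 and 1369 in WT (log2 fold change 3.54 ± 0.12, adjusted p = 1.12e-07). *leu3*, 2-isopropylmalate synthase, had 64293 and 74290.4 in *igo1*Δ-labelled libraries, against 6349 and 6506 in WT (log2 fold change 3.43 ± 0.14, adjusted p = 3.51e-07), and *leu1*, an enzyme further down that pathway, had 8685 and 11193 in *igo1*Δ-labelled libraries, against 2477 and 2672 in WT (log2 fold change 1.95 ± 0.12, adjusted p = 3.86e-06). The 2 genes called lower were *lys7*, which activates the aminoadipate reductase (log2 fold change -0.86 ± 0.15, adjusted p = 0.00131), and *leu5*, annotated as a coenzyme A transporter (log2 fold change -0.47 ± 0.12, adjusted p = 0.00858). All 13 called higher were also called in the fit over all 6 libraries, and neither *lys7* nor *leu5* was.

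Other amino acid pathways were higher by less, and their counts stand beside 29.6% called higher of all tested genes. 11 of 12 arginine and proline genes were called higher, with a median of 1.03, led by *arg1*, acetylornithine aminotransferase (21809 and 25208 in *igo1*Δ-labelled libraries, against 6793 and 6717 in WT, log2 fold change 1.80 ± 0.11, adjusted p = 3.02e-06). In the serine, methionine and threonine group 19 of 22 were called higher, with a median of 0.90. *met17*, homocysteine synthase, had 6636 and 8530.3 in *igo1*Δ-labelled libraries, against 351 and 378 in WT (log2 fold change 4.38 ± 0.14, adjusted p = 7.61e-08), and *ser3*, which starts serine synthesis, had 14828 and 17481 in *igo1*Δ-labelled libraries, against 1666 and 1776 in WT (log2 fold change 3.23 ± 0.11, adjusted p = 1.41e-07). The 2 called lower, *cys12* and *met3*, had changes of -0.27 and -0.25, and neither was called by DESeq2 or without either WT library. In the histidine and aromatic group 13 of 14 were called higher, with a median of 1.34, and *his4*, imidazoleglycerol-phosphate synthase, had 8509.9 and 8450.5 in *igo1*Δ-labelled libraries, against 1709 and 1871 in WT (log2 fold change 2.24 ± 0.08, adjusted p = 1.72e-07). Purine and pyrimidine genes were called higher in 14 of 16 cases, with *ade3* at the top (25600.3 and 27561 in *igo1*Δ-labelled libraries, against 9244 and 9155 in WT, log2 fold change 1.53 ± 0.10, adjusted p = 5.15e-06) and *ura4*, a decarboxylase, at 0.61. In the fit over all 6 libraries 8, 11, 9 and 8 genes of these 4 groups were called higher, and none lower.

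**Figure D4:**
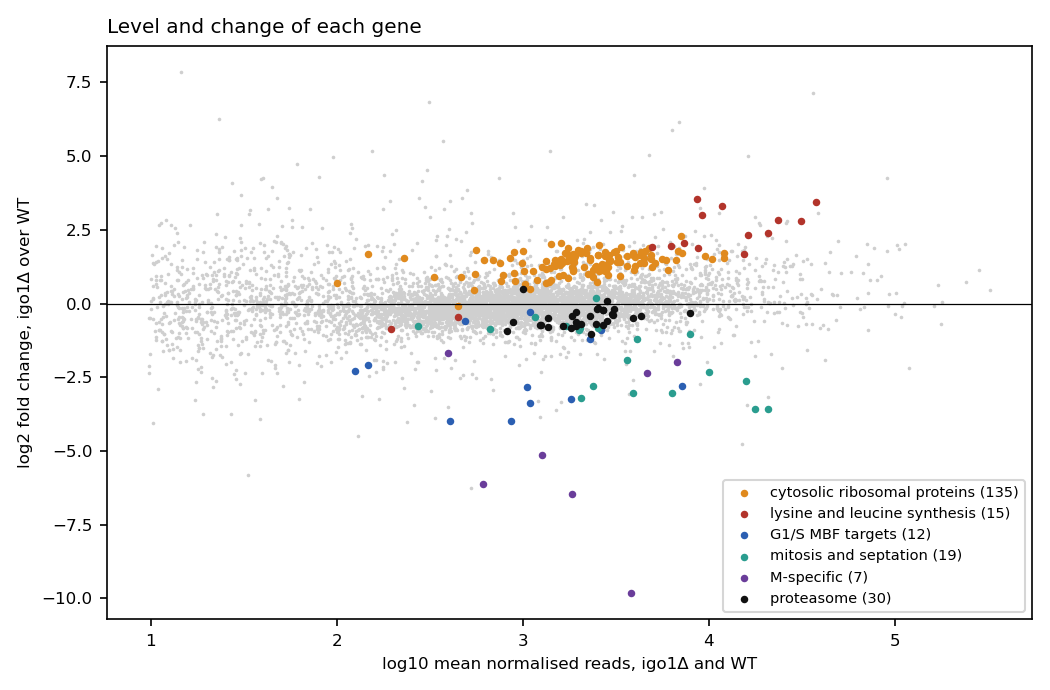
Log2 fold change (igo1Δ over WT) against the log10 mean of normalised reads over the 4 libraries, for each of 5803 genes in grey, with 6 gene groups in colour. Ribosomal protein genes form a band above 0 (median 1.43) across their levels, and proteasome genes one below 0 (median -0.49).

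Genes of nitrogen uptake and assimilation moved both ways. Of 17, 9 were called higher and 6 lower, beside 29.6% and 30.1% of all tested genes. The 3 ammonium transporter genes were higher: *amt3* had 1375 and 1461 normalised reads in libraries labelled *igo1*Δ, against 89 and 61 in WT (log2 fold change 4.25 ± 0.15, adjusted p = 1.45e-07), *amt1* had 87576 and 117164 in *igo1*Δ-labelled libraries, against 39658 and 41364 in WT (log2 fold change 1.34 ± 0.18, adjusted p = 0.000282), and *amt2* had 5898 and 6645 in *igo1*Δ-labelled libraries, against 1824 and 1806 in WT (log2 fold change 1.79 ± 0.08, adjusted p = 6.51e-07). *gdh1*, the glutamate dehydrogenase that assimilates ammonium, and *glt1*, glutamate synthase, had log2 fold changes of 2.75 and 1.79. *gln1*, glutamine synthetase, was not called (35772 and 43380.1 in *igo1*Δ-labelled libraries, against 31354 and 33697 in WT). *agp3*, an amino acid transporter gene, was called higher (log2 fold change 1.06 ± 0.08, adjusted p = 8.96e-06). Peptide and oligopeptide transporters were lower: *ptr2* had 3756 and 4525 in *igo1*Δ-labelled libraries, against 28667 and 46128 in WT (log2 fold change -3.18 ± 0.23, adjusted p = 7.29e-06), and *isp4* had 39649.9 and 46916 in *igo1*Δ-labelled libraries, against 183123 and 208161 in WT (log2 fold change -2.18 ± 0.19, adjusted p = 2.15e-05). *gdh2*, the NAD-dependent glutamate dehydrogenase, was called lower (log2 fold change -0.73 ± 0.07, adjusted p = 4.63e-05). The letters TGATAA of GATA factors stood in 7 of 17 windows of this list and in 26.8% of all coding windows. Over all 6 libraries, 6 were called higher and 3 lower.

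The genes that rose most came from several kinds of transport and metabolism. *cta3*, annotated as a calcium-transporting ATPase, had 66152 and 77930.0 normalised reads in libraries labelled *igo1*Δ, against 537 and 484 in WT (log2 fold change 7.14 ± 0.18, adjusted p = 4.17e-08), a level 141-fold higher. *inv1*, the secreted invertase, had 12645 and 14699 in *igo1*Δ-labelled libraries, against 156 and 222 in WT (log2 fold change 6.17 ± 0.17, adjusted p = 4.35e-08). SPCC70.08c, annotated as a methyltransferase, had 11809 and 13251 in *igo1*Δ-labelled libraries, against 207 and 213 in WT (log2 fold change 5.90 ± 0.11, adjusted p = 1.67e-08), and *aca1*, an acetyltransferase that acts on a toxic proline analog, had 9239 and 9261 in *igo1*Δ-labelled libraries, against 283 and 280.3 in WT (log2 fold change 5.04 ± 0.09, adjusted p = 1.67e-08). *vht1*, the biotin transporter, had 28713 and 34373 in *igo1*Δ-labelled libraries, against 990.4 and 995 in WT (log2 fold change 4.99 ± 0.14, adjusted p = 4.26e-08). SPAC343.21, uncharacterised, had 509.8 and 665 in *igo1*Δ-labelled libraries, against 35.4 and 15.7 in WT (log2 fold change 4.53 ± 0.28, adjusted p = 3.11e-06). SPAC6C3.03c, also uncharacterised, had 42 and 47 reads in *igo1*Δ-labelled libraries, against 1 and 0 in WT (adjusted p = 6.98e-05). Low genes outside the groups above were SPBC2A9.14, with 1 and 1 reads in *igo1*Δ-labelled libraries, against 68 and 67 in WT (adjusted p = 1.69e-05), *spo13*, with 0 and 2 reads in *igo1*Δ-labelled libraries, against 21 and 19 in WT, and SPBC27.05, with 27.3 and 27.7 in *igo1*Δ-labelled libraries, against 445 and 452 in WT in normalised reads (log2 fold change -4.02 ± 0.16, adjusted p = 2.97e-07).

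Carbon metabolism was mixed. Of 14 hexose uptake and glucose-repressed genes 9 were called higher and 1 lower. Apart from *inv1*, *ght2*, a hexose transporter, had 21474 and 24478 in *igo1*Δ-labelled libraries, against 5581 and 5641 in WT (log2 fold change 2.03 ± 0.11, adjusted p = 1.35e-06), and *fbp1*, the gluconeogenic bisphosphatase, had 549 and 483 in *igo1*Δ-labelled libraries, against 282 and 304 in WT (log2 fold change 0.81 ± 0.12, adjusted p = 0.000415). *ght5*, the high-affinity glucose transporter, was called lower (4199.9 and 2476 in *igo1*Δ-labelled libraries, against 9337 and 8466 in WT, log2 fold change -1.41 ± 0.21, adjusted p = 0.00048), though 29.6% of its 50-base stretches recur in the genome. Without *igo1*Δ replicate 1, 3 of this group were called lower. Among 17 genes of glycolysis and fermentation 5 were called lower and 3 higher, beside 30.1% and 29.6% of all tested genes. *gpd3* and *pgk1*, which catalyse consecutive steps, had 8154 and 9777 normalised reads in libraries labelled *igo1*Δ, against 43971 and 37053 in WT (log2 fold change -2.18 ± 0.14, adjusted p = 4.75e-06), and 16235 and 19165 in *igo1*Δ-labelled libraries, against 69419 and 63976 in WT (log2 fold change -1.91 ± 0.14, adjusted p = 9.55e-06) in the same order. *tdh1*, a second gene for the step of *gpd3*, was not called (324140.0 and 426065 in *igo1*Δ-labelled libraries, against 294408 and 253703 in WT), nor was *pyk1*, pyruvate kinase (100046 and 125176 in *igo1*Δ-labelled libraries, against 116612 and 105538 in WT). Without *igo1*Δ replicate 2, 10 were called lower. In the citrate cycle and respiratory chain 8 of 62 were called higher and 26 lower, with *cit1*, citrate synthase, called higher (log2 fold change 1.18 ± 0.12, adjusted p = 5.18e-05). Without *igo1*Δ replicate 1, 17 of them were called higher. In the fit over all 6 libraries 3 hexose genes were called higher and 1 lower, 0 glycolysis genes higher and 1 lower, and 4 genes of the citrate cycle and respiratory chain higher and 4 lower.

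Core stress genes were mostly higher and chaperones mostly lower. Of 17 core stress genes controlled by the MAP kinase Sty1 and the factor Atf1, 12 were called higher and 0 lower. Over all tested genes these shares were 29.6% and 30.1%. The median of the group was 0.74, and with upper-quartile scaling 2 of its genes were called lower. Beside *cta3*, *rds1* had 145053 and 201804 normalised reads in libraries labelled *igo1*Δ, against 9823 and 8158 in WT (log2 fold change 4.27 ± 0.23, adjusted p = 1.56e-06), *gpd1*, which makes glycerol 3-phosphate under osmotic stress, had 106878 and 134849 in *igo1*Δ-labelled libraries, against 33849 and 32326 in WT (log2 fold change 1.87 ± 0.17, adjusted p = 3.22e-05), and *ctt1*, catalase, had 15882 and 20065 in *igo1*Δ-labelled libraries, against 10219.9 and 9551 in WT (log2 fold change 0.86 ± 0.13, adjusted p = 0.000499). *tps1*, trehalose phosphate synthase, and *ntp1*, trehalase, were not called (14811 and 17589 in *igo1*Δ-labelled libraries, against 14580.2 and 14269 in WT for *tps1*). *srx1*, sulfiredoxin, led the 5 of 9 oxidative stress genes that were called higher (632 and 599 in *igo1*Δ-labelled libraries, against 172 and 141 in WT, log2 fold change 1.98 ± 0.13, adjusted p = 4.55e-06), and *trx2*, thioredoxin, was not called. 7 core stress and 2 oxidative stress genes were called higher, and none lower, in the fit over all 6 libraries. The Atf1 letters TGACGT were in 7 of 17 windows of the core stress list and in 5.91% of all coding windows.

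Among 17 heat shock and chaperone genes 10 were called lower and 2 higher, beside 30.1% and 29.6% of all tested genes. *ssa1*, an Hsp70, had 593 and 589 normalised reads in libraries labelled *igo1*Δ, against 2144 and 1934 in WT (log2 fold change -1.79 ± 0.08, adjusted p = 5.85e-07), *hsp104*, the disaggregase, had 1795 and 1702 in *igo1*Δ-labelled libraries, against 5551 and 5166 in WT (log2 fold change -1.62 ± 0.08, adjusted p = 6.85e-07), and *hsp90* had 4854 and 6379 in *igo1*Δ-labelled libraries, against 15669 and 15527 in WT (log2 fold change -1.47 ± 0.13, adjusted p = 2.69e-05). *hsf1*, the heat shock factor, was called lower by less (log2 fold change -0.42 ± 0.07, adjusted p = 0.00114), and *hsp16* was not called (265 and 211 in *igo1*Δ-labelled libraries, against 294 and 322 in WT). The genes called higher were *sks2*, the Hsp70 that works on the ribosome (34508 and 43326 in *igo1*Δ-labelled libraries, against 16059 and 16071 in WT, log2 fold change 1.28 ± 0.14, adjusted p = 8.3e-05), and *ssc1*, the mitochondrial Hsp70 (log2 fold change 0.86 ± 0.12, adjusted p = 0.000387). The heat shock letters GAANNTTC stood in 10 of 17 windows of the list and in 11.1% of all coding windows. Of these genes, 4 were called lower and 0 higher in the fit of 6 libraries.

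Proteasome and autophagy genes were lower by small amounts. Of 30 proteasome genes 27 were called lower and 1 higher, beside 30.1% and 29.6% of all tested genes, with a median of -0.49. *rpn11*, the lid deubiquitinase, had 1581 and 1498 normalised reads in libraries labelled *igo1*Δ, against 3162 and 3099 in WT (log2 fold change -1.02 ± 0.07, adjusted p = 5.36e-06), and *rpt1*, a base ATPase, had 2522 and 2798 in *igo1*Δ-labelled libraries, against 3493 and 3402 in WT (log2 fold change -0.37 ± 0.08, adjusted p = 0.00283). *rpn1301*, a ubiquitin receptor gene, was the one called higher (log2 fold change 0.49 ± 0.07, adjusted p = 0.000578). Of 31 autophagy genes 21 were called lower and 1 higher, beside the same shares of all tested genes, with a median of -0.48. *atg8*, which coats the autophagosome membrane, had 1032 and 1079 in *igo1*Δ-labelled libraries, against 2071 and 2312 in WT (log2 fold change -1.05 ± 0.08, adjusted p = 1.08e-05), *atg22*, a vacuolar amino acid exporter, had 1875 and 1729.9 in *igo1*Δ-labelled libraries, against 3977 and 4064 in WT (log2 fold change -1.16 ± 0.07, adjusted p = 3.48e-06), and *psp3*, a serine protease, had a log2 fold change of -0.87. *atg1*, the starting kinase, was not called (6334 and 7445 in *igo1*Δ-labelled libraries, against 7079.7 and 6955 in WT), and *atg3* was called higher (log2 fold change 0.38 ± 0.09, adjusted p = 0.00747), a call that was lost without either WT library (adjusted p = 0.0522 and 0.0658). Without either library labelled *igo1*Δ, 3 autophagy genes were called higher. In the fit over all 6 libraries 8 proteasome and 6 autophagy genes were called lower, and none higher.

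Smaller regulons were mixed, and their counts stand beside 29.6% called higher and 30.1% called lower of all tested genes. Of 12 iron genes 6 were called higher and 3 lower, with *sib3*, a siderophore synthesis gene, at 1180.2 and 1168 in *igo1*Δ-labelled libraries, against 3796 and 3942 in WT (log2 fold change -1.72 ± 0.07, adjusted p = 3.03e-07) and *php4*, the repressor of iron-using genes, at 1014 and 1252 in *igo1*Δ-labelled libraries, against 577 and 545 in WT (log2 fold change 1.01 ± 0.11, adjusted p = 9.29e-05). By DESeq2 and without WT replicate 1, 1 iron gene was called lower, and over all 6 libraries 1 was called higher and 1 lower. Of 5 phosphate genes 2 were called higher and 3 lower (0 higher without either WT library, and 0 higher and 2 lower over all 6 libraries). *tgp1*, a glycerophosphodiester transporter that responds to phosphate, had 2215 and 2452 in *igo1*Δ-labelled libraries, against 14850.4 and 16315 in WT (log2 fold change -2.74 ± 0.10, adjusted p = 1.85e-07). Of 6 genes that thiamine represses, 4 were called higher and 0 lower (2 higher with upper-quartile scaling or without either WT library, and 1 over all 6 libraries). *bsu1*, one of these and a vitamin B6 importer, had 17862 and 23374 in *igo1*Δ-labelled libraries, against 6239 and 5748 in WT (log2 fold change 1.78 ± 0.14, adjusted p = 1.23e-05). Of 27 ergosterol and fatty acid genes 12 were called higher and 5 lower, *erg31* highest (log2 fold change 1.73 ± 0.08, adjusted p = 5.75e-07) and *erg9* lowest (log2 fold change -0.86 ± 0.08, adjusted p = 2.77e-05); the number called higher was 6 and 7, and that called lower 3 and 2, without WT replicates 1 and 2. The fit of 6 libraries called 3 of these genes higher and 0 lower. The fatty acid synthase genes *fas1* and *fas2* were not called.

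The genes of the pathway itself changed by small amounts. Of 10, 7 were called lower and 2 higher, beside 30.1% and 29.6% of all tested genes. The Greatwall kinase gene *ppk18* had 8150.5 and 8581 normalised reads in libraries labelled *igo1*Δ, against 5716 and 5849 in WT (log2 fold change 0.53 ± 0.08, adjusted p = 0.000503), and its paralog *cek1* had 4329 and 4370.5 in *igo1*Δ-labelled libraries, against 3529.7 and 3768 in WT (log2 fold change 0.25 ± 0.07, adjusted p = 0.0143). *pab1*, the B55 subunit, had 2203 and 1935 in *igo1*Δ-labelled libraries, against 2886 and 2799.9 in WT (log2 fold change -0.46 ± 0.08, adjusted p = 0.00135), and *par2*, a B56 subunit, had 1171 and 1079 in *igo1*Δ-labelled libraries, against 2596 and 2652 in WT (log2 fold change -1.22 ± 0.07, adjusted p = 2.89e-06). The scaffold gene *paa1* and the catalytic genes *ppa1* and *ppa2* had log2 fold changes of -0.72, -0.45 and -0.25, and *ppa3* was not called. The calls of *igo1* and *ppa2* were lost by DESeq2 and without either WT library (adjusted p from 0.0586 to 0.183), and that of *cek1* was lost with upper-quartile scaling (adjusted p = 0.130) and without either WT library. Over all 6 libraries, 1 was called lower and 0 higher.

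The mRNA of genes of silencing, TOR signalling and tRNA modification differed by less than 2-fold with TMM scaling, except that of *clr2*. With upper-quartile scaling, each of these groups had 1 gene called at least 2-fold lower and 0 called at least 2-fold higher. The counts of each group stand beside 29.6% called higher and 30.1% called lower of all tested genes. Of 29 heterochromatin and telomere genes 15 were called lower and 1 higher, with a median of -0.23; 9 were called lower without WT replicate 1 and 9 without WT replicate 2. *clr2*, a subunit of the silencing complex SHREC, had 829.9 and 873 normalised reads in libraries labelled *igo1*Δ, against 419 and 402 in WT (log2 fold change 1.05 ± 0.09, adjusted p = 2.26e-05). *rap1* and *ccq1*, telomere proteins, had 467 and 438 in *igo1*Δ-labelled libraries, against 613 and 573 in WT (log2 fold change -0.39 ± 0.10, adjusted p = 0.009), and 912 and 892 in *igo1*Δ-labelled libraries, against 1219 and 1163 in WT (log2 fold change -0.40 ± 0.07, adjusted p = 0.00149) in the same order; the call of *rap1* was lost without WT replicate 1 (adjusted p = 0.0871). *clr3*, *swi6* and *sgo2* were not called. Among 23 TOR pathway genes 6 were called higher and 7 lower, beside 29.6% and 30.1% of all tested genes, and none at least 2-fold. *tor1* and *tor2*, the kinases, were not called (5762 and 5571 in *igo1*Δ-labelled libraries, against 6054 and 6028 in WT for *tor1*), nor was *gad8*, the TORC2 target. *npr2* and *npr3*, partners in the complex that restrains TORC1, moved apart (log2 fold change -0.94 ± 0.18, adjusted p = 0.00204, and log2 fold change 0.54 ± 0.08, adjusted p = 0.00042). Of 19 genes of tRNA wobble modification 4 were called higher and 6 lower, none at least 2-fold, with *elp5* lowest (log2 fold change -0.92 ± 0.18, adjusted p = 0.00254) and *dph3* highest (log2 fold change 0.89 ± 0.11, adjusted p = 0.000146), and *elp3*, *ctu1* and *trm112* were not called. In this last group 3 were called lower by DESeq2 or without either WT library. The number of TOR genes called higher was 3 without WT replicate 1 and 2 with upper-quartile scaling. With the *pab1*-repressed pair in the fit, 1 heterochromatin, 3 TOR and 0 tRNA modification genes were called lower, and 1, 1 and 0 higher in the same order.

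Lysine is encoded by AAA and AAG, and that wobble modification helps AAA to be read efficiently. The coding genes were split into 4 bins of like size by the AAA share of their lysine codons. In the bin with the lowest share (up to 54.5%) 581 of 1229 genes were called higher and 318 lower, with a median of 0.21. In the bin with the highest share (from 71.6%) 228 of 1191 were called higher and 441 lower, with a median of -0.16. Medians in the bins between were -0.07 and -0.11. Nearly all ribosomal protein genes lie in the lowest bin: without them 450 of its 1097 genes were called higher, and the median was 0.11. This describes mRNA level, and what else the genes of a bin share was not tested.

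Non-coding RNAs spread more widely than coding genes. The kinds of gene were not matched for number of reads, and how far low counts widen this spread was not tested. Of 825 long non-coding RNA genes 251 were called higher and 148 lower, 176 and 103 of them at least 2-fold. The shares of all tested genes were 29.6% and 30.1%, and 11.3% and 6.02% at least 2-fold. Of 4872 coding genes 1401 were called higher and 1606 lower, 418 and 243 at least 2-fold. Their medians were 0.14 and -0.06. SPNCRNA.1287 had 613 and 629.8 normalised reads in libraries labelled *igo1*Δ, against 6.07 and 4.62 in WT (log2 fold change 6.84 ± 0.20, adjusted p = 5.09e-08). SPNCRNA.1337 had 696 and 766 in *igo1*Δ-labelled libraries, against 17.2 and 14.8 in WT (log2 fold change 5.51 ± 0.16, adjusted p = 6.53e-08) and lies opposite *omh4*, a mannosyltransferase gene, which was called lower (log2 fold change -0.64 ± 0.12, adjusted p = 0.00198). SPNCRNA.307, annotated as late in meiosis, had 21 and 35 reads in *igo1*Δ-labelled libraries, against 0 and 0 in WT, which is at least 9.74-fold higher against a floor of 3 reads per library. The falls were led by *meu19* (12.1 and 9.58 in *igo1*Δ-labelled libraries, against 252 and 248 in WT, log2 fold change -4.51 ± 0.23, adjusted p = 1.03e-06), *meu3* (5.05 and 4.26 in *igo1*Δ-labelled libraries, against 68.8 and 76.8 in WT, log2 fold change -3.93 ± 0.35, adjusted p = 2.96e-05) and SPNCRNA.1544 (36.3 and 48.9 in *igo1*Δ-labelled libraries, against 621 and 638 in WT, log2 fold change -3.88 ± 0.16, adjusted p = 3.14e-07). Of the 50-base stretches of *meu19* and *meu3*, 61.3% and 62.2% recur in the genome.

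**Figure D5:**
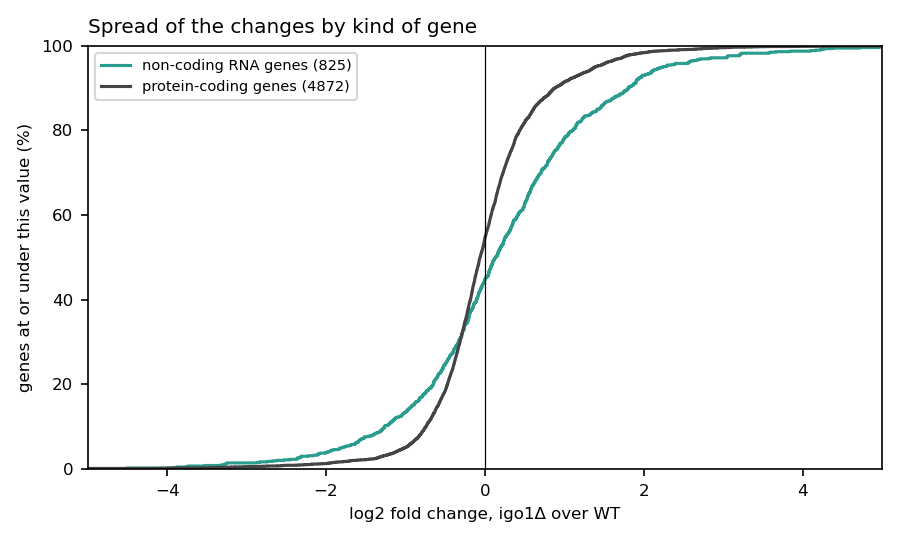
Percent of genes at or under each log2 fold change (igo1Δ over WT), for 825 long non-coding RNA genes and 4872 protein-coding genes outside the chromosome ends. The non-coding curve is flatter, and its median is 0.14 beside -0.06. The curves are not matched for number of reads.

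Whether reads were counted by strand is not stated, so a non-coding RNA and a gene on its other strand may share reads. Of 397 called long non-coding RNAs with a position in the annotation, 311 overlap a tested coding gene. In 137 of them an overlapping coding gene was called in the same direction (109 on the opposite strand), and in 113 one was called in the other direction (105 on the opposite strand). Among 25 features of the mitochondrial genome 0 were called higher and 10 lower, with a median of -0.52. Of 30 small nucleolar RNA genes 8 were called higher and 1 lower, beside 29.6% and 30.1% of all tested genes. Beside all these, the 128 genes near a chromosome end or of *Tf2* had 77 called higher and 13 lower, a median of 0.96.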

How the data were processed

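RNA was sequenced from 2 libraries labelled *igo1*Δ and 2 WT libraries, kept for 4 hours without nitrogen. The labels give extraction with TRIzol and a stranded library kit, and the published methods a column kit for extraction. Per the labels, the authors processed reads with FastQC 0.11.8, Trimmomatic 0.38, HISAT2 2.1.0, featureCounts (Subread 1.6.3) and DESeq2 on ASM294v2, with strand and multi-mapping settings not given in the sources used here. The authors deposited gene signal tables, that is, counts divided by DESeq2 size factors. Each table holds 2 pairs of libraries and no test results.

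Dividing by the value of 1 read recovered whole counts for 100% of values (tolerance 0.01), with 14791399 to 18517786 reads on genes per library. Genes were tested from a mean of 10 reads upwards with edgeR 4.0.16 in R 4.3.3 (TMM, quasi-likelihood), with DESeq2 1.42.0 and limma 3.58.1 (pseudocounts of 1 and 10) as alternatives, beside other scalings, filters, a fit over all 6 libraries, a replicate block and each library left out. The labels call the libraries of a group biological replicates, without naming cultures or days, so p-values measure the spread between these libraries. The fold of a gene at 0 reads in a group was set against 3 reads per library. On simulated counts for this comparison (5922 genes, dispersion 0.01) edgeR recovered 100% of 110 genes changed by 1 on the log2 scale, with 9 false calls. At a dispersion of 0.05 (5917 genes) it recovered 30.5% of 105.

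Named genes were the 10 coding genes that rose most and the 10 that fell most, called and with groups that do not overlap, 3 of each among non-coding genes, the largest rise and fall and the first 2 members of each of 36 gene groups, and genes of the pathway or measured in the study. The members and the groups were chosen with earlier results of these data known. A further 46 genes were chosen after their values were seen: *adg1*, *adg2*, *adg3*, *agn1*, *agp3*, *ams2*, *amt2*, *atg1*, *byr1*, *cdc13*, *cdt2*, *cig2*, *cut1*, *gdh1*, *gdh2*, *ght2*, *glt1*, *hsf1*, *hsp90*, *isp4*, *leu3*, *leu5*, *lrs1*, *mam1*, *met3*, *mik1*, *mrc1*, *nrd1*, *nrm1*, *ntp1*, *omh4*, *pat1*, *php4*, *plo1*, *pol1*, *rgs1*, *rpl1602*, *rpl3402*, *rps1402*, *rps20*, *slp1*, *spk1*, *ssc1*, *sxa2*, *tos4* and *tps1*. Of 7001 identifiers 6863 matched RefSeq ASM294v3 by identifier, which gave names, windows and sequences. Since that is not the build of the files, no coordinates are given. Figures were drawn with matplotlib 3.10.9. A few genes that the rule would name are not reported here.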

Additional observations from a re-analysis of the deposited data

How the results depend on the processing

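The number of calls depended most on which libraries set the spread. In the fit over all 6 libraries 513 genes were called higher and 374 lower, 363 and 189 of them at least 2-fold, against 1754, 1785, 673 and 357 in the fit of the 4 libraries, and 81 of 204 named genes lost their call in the same direction. The biological coefficient of variation was 0.253 over 6 libraries and 0.0815 over 4. With 1 library left out, 1432 to 1970 genes were called higher and 1341 to 1948 lower, 644 to 720 and 328 to 416 at least 2-fold, where the lone library was assumed to vary like the other group. DESeq2 called 1632 and 1416, and kept 91.6% and 78.9% of the calls. With the replicate number as a block 1764 were called higher and 1819 lower, 682 and 362 at least 2-fold. The labels do not say that a number marks a shared culture or day. Same-numbered libraries deviated together with a correlation of 0.150, which over 2 numbers cannot show whether they share a culture or day.

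Among the named genes, log2 fold changes changed sign in 13 that had no call in the fit of the 4 libraries, and of these *nmt1* was called in an alternative, lower without *igo1*Δ replicate 2 (adjusted p = 0.0269, edgeR). With upper-quartile scaling these were *clr3* (-0.0655), *gad8* (-0.0242), *hta1* (-0.0712), *nmt1* (-0.0642), *pcn1* (-0.0268), *pyk1* (-0.095), *str1* (-0.0622), *swi6* (-0.10) and *trm112* (-0.0599). *atg1* was at 0.00289 by DESeq2 and 0.00289 with median-of-ratios scaling, and *byr1* at 0.0247 and 0.0246 in these, 0.00762 over all 6 libraries and 0.00191 with a mean of at least 50 reads. With a library left out, log2 fold changes ran from -0.15 to 0.11 for *atg1*, -0.056 to 0.0509 for *byr1*, -0.11 to 0.20 for *hta1*, -0.59 to 0.0637 for *mug10*, -0.24 to 0.32 for *nmt1*, -0.15 to 0.19 for *pyk1*, -0.18 to 0.0326 for *rpl3402*, -0.065 to 0.19 for *str1*, -0.0313 to 0.0747 for *swi6* and -0.16 to 0.26 for *trm112*. DESeq2 ended the calls of 7 of 204 named genes, upper-quartile scaling 3, and leaving out WT replicate 1 or 2 ended 12 and 11. Genes under 10 reads on average, 1070 of 7001, were not tested, for lack of depth.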
